A study of Mus musculus with 16 samples.

Results

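S100a8, S100a9, Csf3r, Cxcr2, Retnlg, Camp, Ly6g, Wfdc17 and Il1r2 are 9 genes of neutrophil granules, secretion and surface receptors, taken out of 57010 genes counted in mouse granulosa cells (mGCs). They were chosen by their measured levels, which were higher in mice carrying an endometriosis model (EM) than in sham-operated mice (Con). Their EM and Con values are therefore a description and are given without a test, whereas the comparison of cultured cells treated with 14,15-EET or PBS had no part in the choice and was tested.

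Neutrophils are short-lived white blood cells that leave the bone marrow under the control of granulocyte colony-stimulating factor and CXC chemokines and move into inflamed tissue. They store antimicrobial proteins in granules that are loaded at successive stages of maturation, and their cytosol is rich in the calcium-binding pair S100A8 and S100A9. Neutrophils and other leukocytes enter the ovary around ovulation, which has features of an inflammatory reaction.

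Bulk poly(A) RNA was sequenced from mGCs of female ICR mice in 2 experiments. In the first, mGCs were isolated from 5 Con mice, which had sham surgery, and from 5 EM mice, in which endometrium of donor ICR mice had been stitched onto the serosa of the bowel mesentery. In the second, mGCs of 6 further EM mice were divided into parts and kept in medium with fetal bovine serum for 24 h and then, by the study's description, for a further 24 h with 100 nM 14,15-EET, an epoxide of arachidonic acid, in 3 cultures and with PBS in 3 cultures. The methods describe no sorting of the cells, and the animals behind each culture are not named. The mice were young adults at purchase, with no engineered allele named. Mice that received a graft kept their ovaries, were given estradiol while it implanted, and after a washout period were given gonadotropin to induce ovulation. The methods do not say separately whether sham-operated mice received estradiol, and the fresh mGCs of both groups were taken after ovulation induction.

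Between 14229123 and 15999234 reads per library were counted on genes in the Con and EM groups, and between 21384686 and 29482826 in the PBS and EET groups. A count of 3 reads corresponds to 0.188 to 0.211 CPM (reads of a gene relative to the library total) in the fresh libraries. In the cultured ones it corresponds to 0.102 to 0.140 CPM. These limits use the raw totals, without normalization, so they differ somewhat on the normalized scale. CPM values below carry edgeR's TMM normalization, set separately for the fresh and the cultured table. The cells carried granulosa markers at high levels, with 10 markers summing to 16628 ± 2244 CPM in Con and 15517 ± 6589 CPM in EM (SD, n = 5 each). The general leukocyte marker Ptprc was also present in every fresh library, between 10.9 and 35.6 CPM, while the 6 cultured libraries together held 4 Ptprc reads.

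Some libraries stood apart before any comparison. Con-mGC-3 had 35.6 CPM of Ptprc, against 10.9 to 14.7 CPM in the other 4 Con libraries, and the highest Con level of 8 of the 9 neutrophil genes. EM-mGC-3 had 21.8% of its reads on mitochondrial transcripts, against 6.76% to 11.1% in the other 9 fresh libraries, and its red blood cell markers summed to 17418 CPM, against 2648 to 6151 CPM in the others. EM-mGC-4 alone carried high Camp. Log2 fold changes were also computed without these libraries for the 7 of the 9 genes that could be fitted, Camp and Ly6g being too low. Those of most other named genes are given without Con-mGC-3 where it moved the fold by over 1.5 times. In bulk RNA, fewer cells of a type and less RNA per cell cannot be told apart.

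The stretch just upstream is shown for 4 of the genes, namely the S100 pair, the receptor Csf3r and Camp. RefSeq promoter windows of GRCm38.p6 were found for all 9 genes, and the 250 bases before the start were searched on both strands for TTGCNNAA, a core of the C/EBP motif, and for GAGGAA, a core of the PU.1 motif. C/EBP and PU.1 proteins are the main regulators of granulocyte and myeloid gene expression. In the lines below, capitals mark a match to either motif, read 5′ to 3′ on the strand of the gene. The S100a8 window lies at chr3:90668821-90669070 on the plus strand, S100a9 at chr3:90695722-90695971 on the minus strand, Csf3r at chr4:126024409-126024658 on the plus strand and Camp at chr9:109849457-109849706 on the minus strand.
S100a8: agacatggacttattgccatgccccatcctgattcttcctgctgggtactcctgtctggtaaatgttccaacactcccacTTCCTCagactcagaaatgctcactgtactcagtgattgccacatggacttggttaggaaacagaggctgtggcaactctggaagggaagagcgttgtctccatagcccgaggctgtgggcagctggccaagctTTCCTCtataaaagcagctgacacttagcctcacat
S100a9: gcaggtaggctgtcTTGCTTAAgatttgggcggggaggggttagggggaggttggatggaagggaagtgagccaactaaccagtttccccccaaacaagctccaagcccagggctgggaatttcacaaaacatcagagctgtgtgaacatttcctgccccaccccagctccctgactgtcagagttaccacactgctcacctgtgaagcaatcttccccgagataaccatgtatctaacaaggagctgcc
Csf3r: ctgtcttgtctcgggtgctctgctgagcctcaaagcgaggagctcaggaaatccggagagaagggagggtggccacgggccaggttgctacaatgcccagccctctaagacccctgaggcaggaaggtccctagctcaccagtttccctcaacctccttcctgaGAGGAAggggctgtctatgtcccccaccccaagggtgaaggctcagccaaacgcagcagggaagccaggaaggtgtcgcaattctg
Camp: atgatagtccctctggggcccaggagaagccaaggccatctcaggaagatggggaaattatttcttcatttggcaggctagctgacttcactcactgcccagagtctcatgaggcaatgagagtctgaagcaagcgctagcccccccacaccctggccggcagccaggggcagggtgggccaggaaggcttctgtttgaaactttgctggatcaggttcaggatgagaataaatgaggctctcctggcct

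S100a8 carried GAGGAA on the opposite strand, 170 and 36 bases before its start, and S100a9 carried TTGCNNAA 236 bases before its start. Csf3r had GAGGAA 86 bases before its start, and neither set of letters occurred in the Camp window. Over the 9 genes, TTGCNNAA was present for 3 (Ly6g, Retnlg and S100a9) and GAGGAA for 5 (Csf3r, Cxcr2, Ly6g, S100a8 and Wfdc17), with both for Ly6g alone. Of 32851 windows of the same length over all genes, 9.56% held TTGCNNAA and 23.3% held GAGGAA. These are matches of letters and do not show binding. The motifs do not overlap each other in letters, and both are short enough to occur often.

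All 9 genes had a higher mean level in EM than in Con, and 7 of them had enough reads to pass edgeR's expression filter, while Camp and Ly6g did not. The plot of CPM by library shows the 4 groups side by side for each gene. The groups did not overlap for 2 of the genes, Cxcr2 and Wfdc17. Over all 17229 genes tested, 0.917% were higher in every EM library than in every Con library, a share that cannot be read against these genes since the same values chose them. Without Con-mGC-3, the highest Con library for 8 of the 9, the groups did not overlap for 7 of them. Of all tested genes, 2.76% were then higher in every EM library. This share cannot be read against the 9 genes either, for the same reason. Without EM-mGC-3, the log2 fold changes of the 7 fitted genes lay between 1.46 for Csf3r and 3.58 for S100a8, and without EM-mGC-4 between 1.19 for Csf3r and 3.18 for S100a8. Without EM-mGC-5 they lay between 1.33 for Csf3r and 3.05 for S100a8.

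**Figure D1:**
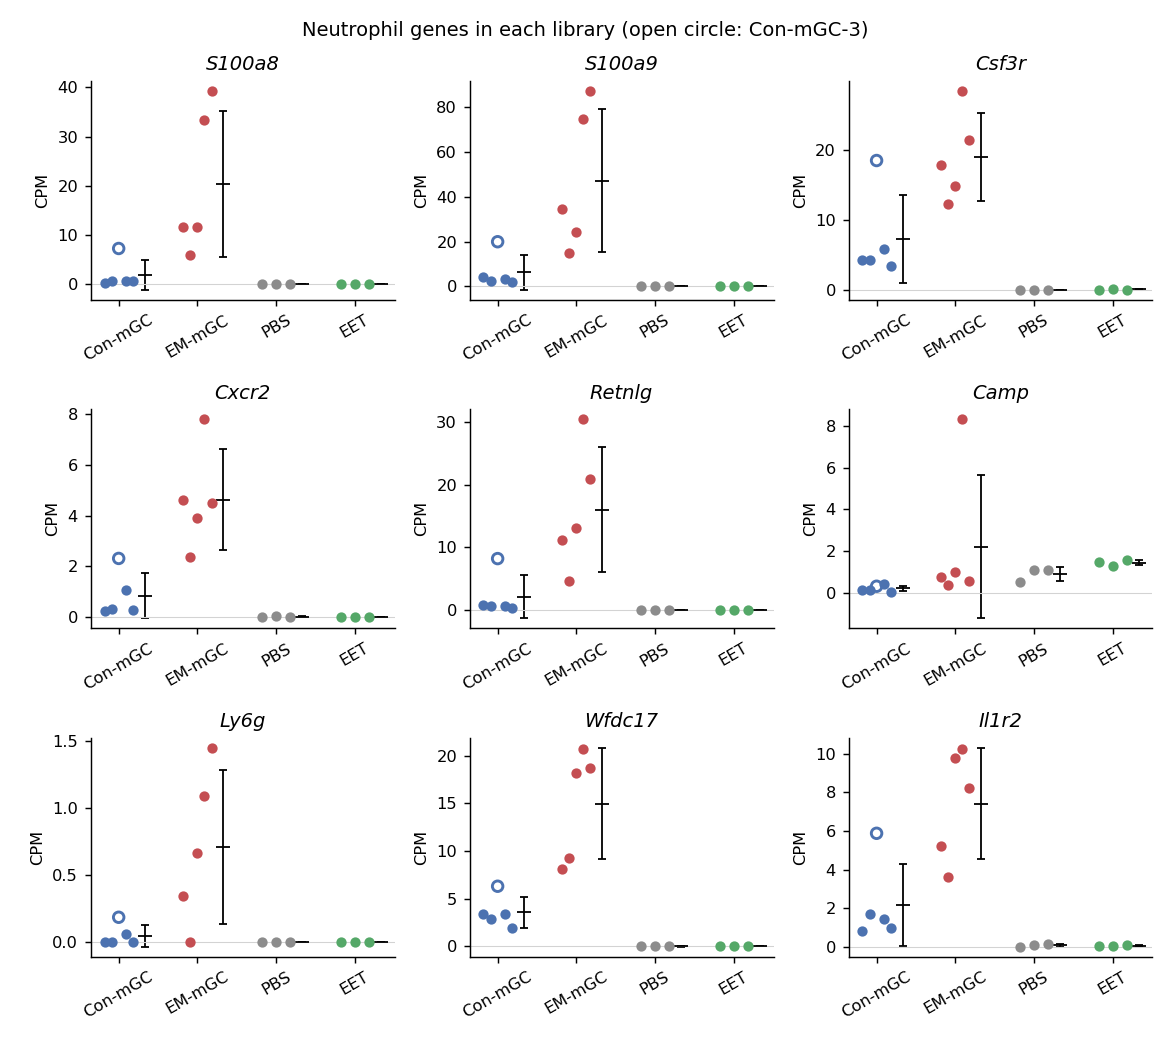
CPM (y axis, linear, a scale of its own in each panel) of the 9 neutrophil genes in the Con-mGC and EM-mGC libraries (5 each) and the PBS and EET libraries (3 each), 1 point per library, with the mean and SD beside each group. The open circle is Con-mGC-3, the highest Con library for 8 of the 9 genes, and the cultured libraries lie at or near 0 for every gene but Camp.

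S100a8 and S100a9 encode the subunits of calprotectin, a calcium- and zinc-binding alarmin that makes up a large part of neutrophil cytosolic protein. The files place both on chromosome 3, S100a8 at 90576285 to 90577342 on the plus strand and S100a9 at 90599939 to 90603028 on the minus strand, in GRCm39 by the submitters' processing notes. S100a8 was at 0.263, 0.613, 7.25, 0.663 and 0.597 CPM in Con-mGC-1 to Con-mGC-5. It was at 11.6, 5.91, 11.6, 33.3 and 39.3 CPM in EM-mGC-1 to EM-mGC-5. EM-mGC-4 and EM-mGC-5 were the high libraries, and Con-mGC-3 exceeded EM-mGC-2, so the groups overlapped by that pair. The log2 fold change of S100a8 was 3.43 (SE 0.83), 5.23 without Con-mGC-3 and 3.05 without EM-mGC-5.

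S100a9 was the most abundant of the 9 genes in EM. Its levels were 4.14, 2.21, 19.9, 3.12 and 1.79 CPM in the Con libraries and 34.7, 14.9, 24.3, 74.6 and 87.3 CPM in the EM libraries. As for S100a8, the order within EM was led by EM-mGC-5 and EM-mGC-4 and ended with EM-mGC-2, which lay below Con-mGC-3. The mean went from 6.24 ± 7.71 to 47.2 ± 31.9 CPM (SD, n = 5 each), a log2 fold change of 2.92 (SE 0.69). With Con-mGC-3 left out, the Con mean was 2.81 ± 1.04 CPM (SD, n = 4) and the log2 fold change 4.07. With EM-mGC-5 left out, the log2 fold change was 2.57.

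The remaining genes of granules and secretion were Retnlg, Wfdc17, Camp and Ly6g, of which the last is a surface protein but serves as the usual mouse neutrophil marker. Retnlg encodes a resistin-like protein secreted by bone marrow granulocytes and lies on chromosome 16 at 48692984 to 48694859. Retnlg was at 0.723, 0.613, 8.19, 0.597 and 0.298 CPM in Con and at 11.2, 4.53, 13.1, 30.4 and 20.9 CPM in EM. Its EM libraries spread from EM-mGC-2, below Con-mGC-3, to EM-mGC-4, and all 5 lay above the other 4 Con libraries. The log2 fold change was 2.94 (SE 0.82), 4.83 without Con-mGC-3 and 2.57 without EM-mGC-4.

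Wfdc17 encodes a small secreted protein of the whey acidic protein family, made by activated macrophages as well as neutrophils, on chromosome 11 at 83594817 to 83597094. It was at 3.42, 2.88, 6.32, 3.45 and 1.91 CPM in Con and at 8.08, 9.27, 18.2, 20.7 and 18.7 CPM in EM. The groups did not overlap, and Con-mGC-3 was high by less here than for the S100 genes. The log2 fold change was 2.06 (SE 0.35), and the value without Con-mGC-3 was 2.36.

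Camp encodes the cathelicidin precursor, an antimicrobial protein of the specific granules that is made in bone marrow myelocytes, on chromosome 9 at 109676447 to 109678685. In Con it had 2, 2, 5, 6 and 1 reads, or 0.0597 to 0.398 CPM. In EM it had 11, 6, 12, 122 and 8 reads, or 0.766, 0.394, 0.996, 8.32 and 0.551 CPM. EM-mGC-4 held most of the EM reads, and without it the EM mean was 0.677 ± 0.262 CPM (SD, n = 4) against 2.21 ± 3.43 CPM with it (SD, n = 5). Con-mGC-3, the highest Con library for the other 8 genes, was not the highest for Camp, where Con-mGC-4 was.

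Ly6g encodes the antigen that defines mouse neutrophils in flow cytometry, on chromosome 15 at 75027089 to 75030975. It had 0, 0, 3, 1 and 0 reads in Con and 5, 0, 8, 16 and 21 reads in EM. No Con library was above the 3-read level, so no fold change is given, and EM-mGC-2 had none either. Ly6g sits in a cluster of closely related Ly6 genes, and Retnlg and Wfdc17 also have relatives, so reads shared between copies could have been split or lost in counting.

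Csf3r, Cxcr2 and Il1r2 are the receptors among the 9 genes. Csf3r encodes the receptor of granulocyte colony-stimulating factor, which drives neutrophil production and survival, on chromosome 4 at 125918343 to 125938233. Csf3r was at 4.27, 4.29, 18.4, 5.83 and 3.40 CPM in Con and at 17.8, 12.2, 14.8, 28.4 and 21.4 CPM in EM. It differed least between the groups of the 7 fitted genes, and Con-mGC-3 exceeded 3 of the 5 EM libraries. The log2 fold change was 1.38 (SE 0.44), and 2.09 without Con-mGC-3.

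Cxcr2 encodes the receptor for CXCL1, CXCL2 and related chemokines that draw neutrophils into tissue, on chromosome 1 at 74193148 to 74200405. It was at 0.263, 0.306, 2.31, 1.06 and 0.298 CPM in Con and at 4.60, 2.37, 3.90, 7.78 and 4.48 CPM in EM. The groups were separated by a narrow gap between Con-mGC-3 and EM-mGC-2. The log2 fold change was 2.44 (SE 0.57), and 3.25 without Con-mGC-3.

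Il1r2 encodes the decoy receptor that binds interleukin 1 without signalling, on chromosome 1 at 40113239 to 40164391. It was at 0.789, 1.72, 5.88, 1.46 and 0.955 CPM in Con and at 5.22, 3.61, 9.79, 10.2 and 8.20 CPM in EM. EM-mGC-1 and EM-mGC-2 lay below Con-mGC-3, and the other 3 EM libraries above it. The log2 fold change was 1.77 (SE 0.52), and 2.58 without Con-mGC-3. Il1r2 overlaps 2 other counted genes, Gm16894 and Gm37347, so its count is less certain than those of the other 8 genes, which overlap none.

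Levels of different genes were compared per kilobase of exon. S100a9 had the highest mean in EM, at 90.4 CPM per kb (n = 5). In EM it was followed by S100a8 at 29.3, Wfdc17 at 28.1 and Retnlg at 27.0 CPM per kb, whose SDs of 21.5, 11.0 and 16.8 overlap, so that their order is not resolved. Csf3r at 5.24, Il1r2 at 3.89, Camp at 2.91, Cxcr2 at 1.52 and Ly6g at 0.754 CPM per kb came last, and the 3 receptors were thus below S100a8, S100a9, Wfdc17 and Retnlg. The Camp mean rested on EM-mGC-4. Without that library Camp had a mean of 0.893 ± 0.345 CPM per kb and Cxcr2 of 1.26 ± 0.337 CPM per kb (SD, n = 4 each), which overlap, so that the order of Camp and Cxcr2 is not resolved. In Con, the order rested on Con-mGC-3. With all 5 libraries S100a9 had the highest mean, and it was followed by means of 6.74 CPM per kb for Wfdc17, 3.52 for Retnlg, 2.71 for S100a8 and 2.01 for Csf3r. Without Con-mGC-3, S100a9 had a mean of 5.39 CPM per kb (3.43 to 7.94) and the others were at 5.47 ± 1.35 for Wfdc17, 0.941 ± 0.307 for Retnlg, 0.769 ± 0.263 for S100a8 and 1.23 ± 0.280 for Csf3r (SD, n = 4 each). The mean of Csf3r then stood above those of Retnlg and S100a8. Csf3r was above S100a8 in each of these libraries, but below it in Con-mGC-3 (5.11 against 10.5 CPM per kb). Retnlg was above Csf3r in Con-mGC-1 (1.22 against 1.18 CPM per kb) and below S100a8 in Con-mGC-5 (0.503 against 0.860 CPM per kb), so that its place is not resolved.

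The proportions of the 9 genes within each library are a description without a test, since the same values chose the genes. They took 213, 208, 1101, 251 and 156 reads in the Con libraries and 1355, 810, 1173, 3149 and 2934 in the EM libraries. S100a8 and S100a9 together made up 22.1% to 39.5% of these reads in Con and 36.9% to 62.6% in EM, while the 3 receptors made up 38.0% to 50.2% in Con and 16.9% to 34.2% in EM. The plot of the make-up of the reads shows Con-mGC-3 at an S100 share of 39.5%, above the other 4 Con libraries and above EM-mGC-2 and EM-mGC-3. The receptor share was lowest in EM-mGC-5 and EM-mGC-4, the libraries with the most reads on the 9 genes.

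**Figure D2:**
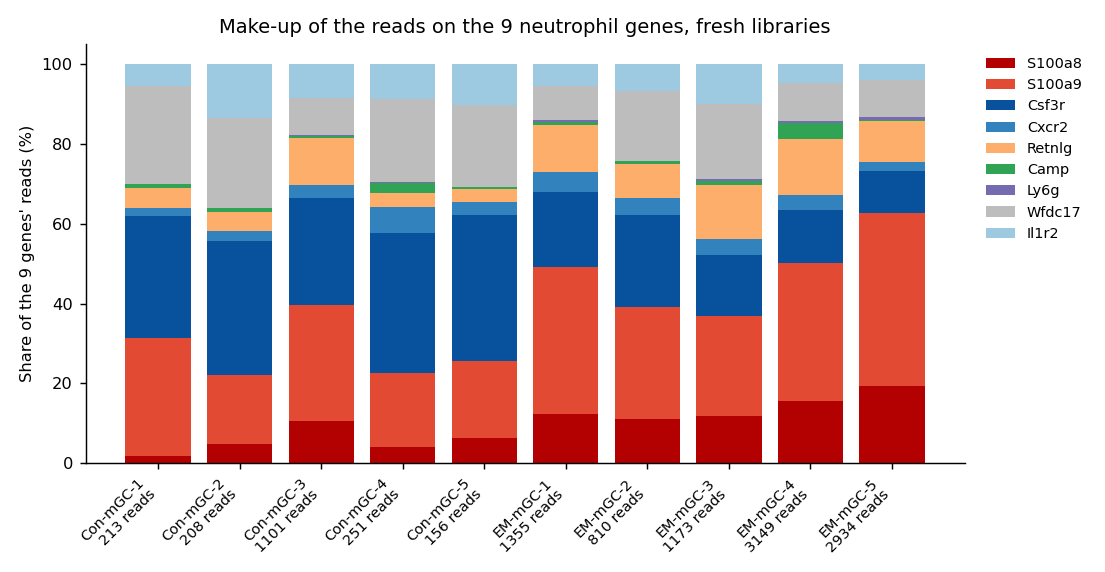
Share of the reads on the 9 neutrophil genes taken by each gene (y axis, %) in the 10 fresh libraries, with the number of such reads under each bar. S100a8 and S100a9 (red) reach 62.6% in EM-mGC-5, and the blue receptors reach 50.2% in Con-mGC-4.

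Ratios within a library do not depend on its scaling. They were chosen after the values had been seen and are given without a test. The number of Csf3r reads per S100a9 read was 1.03, 1.94, 0.925, 1.87 and 1.90 in Con and 0.511, 0.819, 0.608, 0.380 and 0.246 in EM. Every EM library was below every Con library, and Con-mGC-3 was the lowest of the Con libraries. The S100a8 share of the reads of the S100 pair was 5.97% in Con-mGC-1 (exact Clopper-Pearson 95% interval 1.65% to 14.6%) and 17.5% to 26.7% in the other Con libraries, against 25.1% to 32.3% in EM. The intervals of the low-count Con libraries were wide, such as 12.7% to 41.2% in Con-mGC-5. That of Con-mGC-1 overlapped those of Con-mGC-2, Con-mGC-4 and Con-mGC-5 but lay below those of Con-mGC-3 and of every EM library. Within EM, the interval of EM-mGC-1 (21.8% to 28.5%) ended just below those of EM-mGC-4 (28.6% to 33.2%) and EM-mGC-5 (28.9% to 33.2%). These intervals cover counting error only.

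S100a9 was also read against leukocyte markers. The number of S100a9 reads per Ptprc read was 0.380, 0.161, 0.561, 0.212 and 0.136 in Con and 1.56, 0.901, 1.17, 3.73 and 3.52 in EM, with no overlap. Ptprc, at 17.6 ± 10.1 CPM in Con and 20.9 ± 3.04 CPM in EM (SD, n = 5 each), had the smallest log2 fold change of the 10 leukocyte markers. This rested on Con-mGC-3, at 35.6 CPM. The other Con libraries had 10.9 to 14.7 CPM of Ptprc and the EM libraries 16.6 to 24.8 CPM, so Ptprc was not an unchanged reference. Per read of all 10 markers together, a ratio added after the values had been seen, S100a9 was at 0.0373, 0.0235, 0.0949, 0.0336 and 0.0198 in Con and at 0.219, 0.131, 0.0840, 0.367 and 0.435 in EM. On this scale the groups overlapped, with EM-mGC-3 below Con-mGC-3 and the other 4 EM libraries above every Con library. The plot of ratios within each library shows these values.

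**Figure D3:**
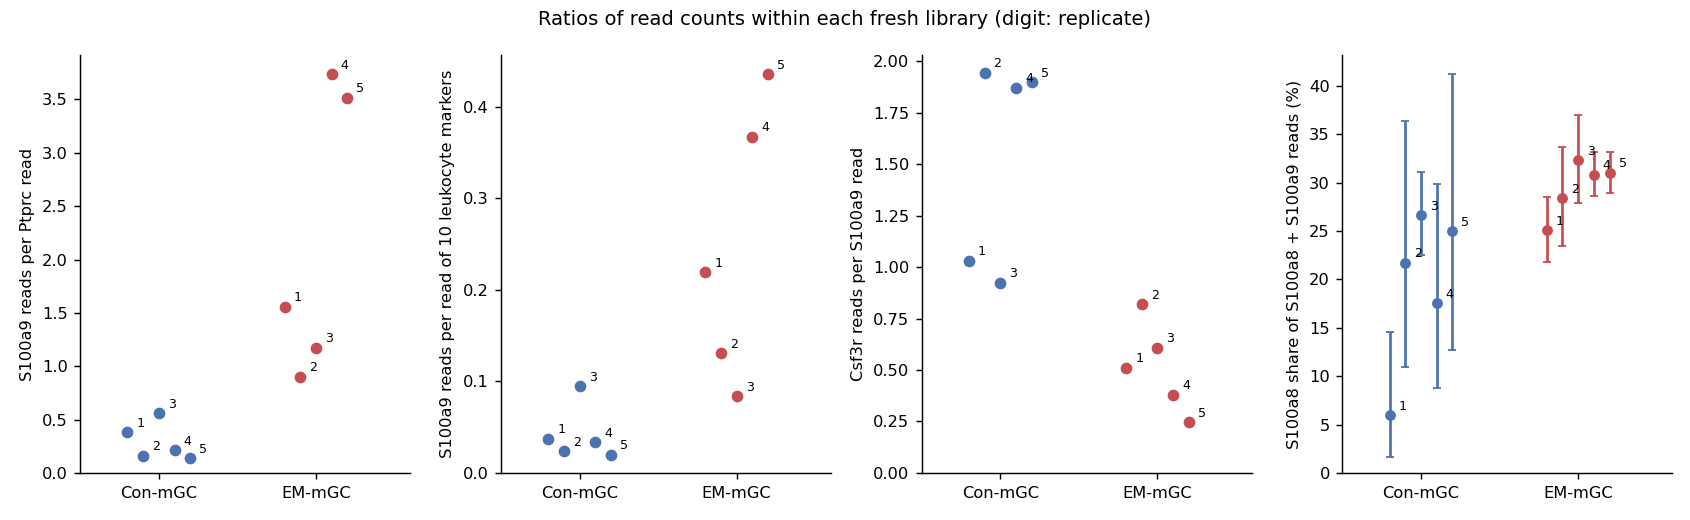
Ratios of read counts in the 10 fresh libraries, 1 point per library with its replicate number, for S100a9 reads per Ptprc read (the first panel), S100a9 reads per read of 10 leukocyte markers (the second), Csf3r reads per S100a9 read (the third) and the S100a8 share of the S100 pair in percent with its exact 95% interval (the last). The groups do not overlap in the first and the third, where Con-mGC-3 is at 0.561 and 0.925, and overlap in the second, where Con-mGC-3 at 0.0949 is above EM-mGC-3 at 0.0840.

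Other genes of neutrophils were taken from fixed lists of granule genes, receptors, further genes of mature neutrophils and granulocyte transcription factors, 89 distinct genes of which 74 were tested. None of these passed an adjusted p of 0.05 by the quasi-likelihood test of edgeR, with Benjamini-Hochberg adjustment over all tested genes, and neither did any of the 17229 genes tested, the share called being 0%. At an unadjusted p under 0.05, 53 of the 74 were higher in EM and 0 were lower, where 5.22% of all tested genes were higher and 4.22% lower, 1626 genes in all. The median log2 fold change of the 74 was 1.10 against -0.01 over all tested genes, with 66 positive and 8 negative. DESeq2 called 110 genes, of which 21 were in these lists, and edgeR without Con-mGC-3 called 46, of which 23 were in these lists. The lists were drawn up with the higher neutrophil genes of EM already known, so these counts are a description. Many of the listed genes are also expressed by monocytes and macrophages.

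Of 19 granule genes, 13 were tested and 9 were higher in EM at an unadjusted p under 0.05, with a median log2 fold change of 1.14. The most abundant was Lyz2, lysozyme, at 125 ± 47.0 CPM in Con and 276 ± 134 CPM in EM (SD, n = 5 each). Chil3, a chitinase-like secreted protein, had the largest value, with means of 2.31 CPM in Con and 27.1 CPM in EM and a log2 fold change of 3.54 (SE 0.86), which was 5.59 without Con-mGC-3, a library at 9.32 CPM. Mmp9, the gelatinase of the tertiary granules, had a log2 fold change of 1.86 (SE 0.38), Hp, haptoglobin, 1.62 (SE 0.41), Mmp8, the neutrophil collagenase, 3.22 (SE 0.85), and Ngp, a specific granule protein, 2.45 (SE 0.66). Without Con-mGC-3, Mmp8 was at 4.45 and Ngp at 3.32, and without EM-mGC-4 Mmp8 was at 2.41. Ltf, lactoferrin of the same specific granules, stood on the other side at 19.8 ± 8.27 CPM in Con and 12.1 ± 5.77 CPM in EM (unadjusted p of 0.0795 by edgeR). The primary granule genes Mpo and Elane, which are transcribed in bone marrow precursors, had 20 and 7 reads over the 10 fresh libraries and were not tested, and Ctsg had 1. Prtn3, proteinase 3 of the same granules, had 213 reads and was higher at an unadjusted p of 0.0200 by edgeR, from 0.815 ± 0.464 CPM in Con to 2.11 ± 0.918 CPM in EM, a log2 fold change of 1.36 (SE 0.51).

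Of 32 further receptor genes, 28 were tested and 23 were higher at an unadjusted p under 0.05, with a median log2 fold change of 1.37. Ltb4r1, the leukotriene B4 receptor, had the largest value, with means of 0.278 ± 0.216 CPM in Con and 3.79 ± 2.47 CPM in EM and a log2 fold change of 3.73 (SE 0.62). Cd14, the lipopolysaccharide co-receptor, had means of 16.6 CPM in Con and 59.3 CPM in EM and a log2 fold change of 1.84 (SE 0.41). Fpr2, a receptor for formylated peptides, had a log2 fold change of 2.41 (SE 0.58), Trem1, an amplifier of innate signals, 2.55 (SE 0.62), and C5ar1, the receptor of complement C5a, 1.52 (SE 0.37). Without Con-mGC-3, Fpr2 was at 3.20 and Trem1 at 3.72. The most abundant receptor, Il17ra, which many cell types express, was at 47.2 ± 10.9 CPM in Con and 44.6 ± 4.56 CPM in EM, a log2 fold change of -0.08. Cxcr1, the second CXC receptor of neutrophils, had 2 reads in all fresh libraries.

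Of 31 further genes of mature neutrophils, 27 were tested and 19 were higher at an unadjusted p under 0.05, with a median log2 fold change of 0.97. Asprv1, an aspartic protease of skin that mature neutrophils also express, had a log2 fold change of 2.48 (SE 0.51), and Il1b, interleukin 1 beta, 2.29 (SE 0.49), against 3.15 and 3.08 without Con-mGC-3. The subunits of the phagocyte oxidase Ncf1 and Ncf4 had log2 fold changes of 1.55 (SE 0.45) and 1.53 (SE 0.37), Ncf1 being at 2.20 without Con-mGC-3. Wfdc21 had the largest value at 3.14 (SE 0.92), from 0.212 CPM in Con, nearly all of it in Con-mGC-3. Padi4, which citrullinates histones, had the lowest at -0.50 (SE 0.55), or -1.14 without EM-mGC-4. Among 7 granulocyte transcription factors, 6 were tested and 2 were higher at an unadjusted p under 0.05, Spi1, which encodes PU.1, with a log2 fold change of 0.69 (SE 0.24) and Cebpd with 0.59 (SE 0.23). Gfi1 was at 1.02 (SE 0.62), Cebpa, the most abundant, at -0.13 (SE 0.17), Cebpb at -0.30 (SE 0.28), and Cebpe, the factor of specific granules, was too low to be tested.

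The groups did not overlap for 5 of the 74 other neutrophil genes, Asprv1, Chil3, Hp, Ltb4r1 and Mmp9, all higher in EM, where 0.917% of all tested genes were. The plot of log2 fold changes by list sets these genes beside the markers of other cells.

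**Figure D4:**
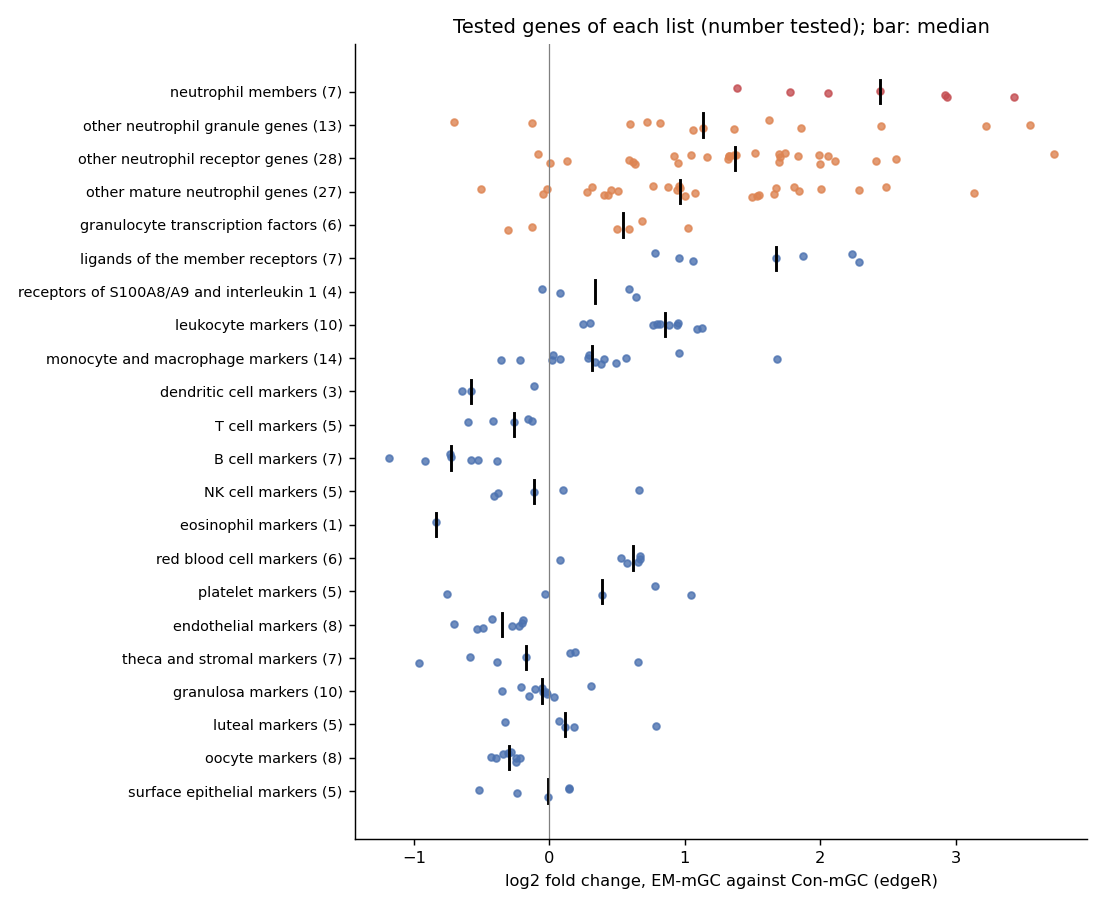
Log2 fold change of EM-mGC against Con-mGC (x axis) for the tested genes of each list, 1 point per gene, with the number tested in brackets and a black bar at the median. The 7 fitted neutrophil genes that were chosen for this difference (red) have a median of 2.44, the other neutrophil lists (orange) lie between 0.55 and 1.37, and granulosa markers at -0.05.

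Ligands of the 3 receptors were looked at next. Of 10 ligand genes, 7 were tested and 6 were higher in EM at an unadjusted p under 0.05, with a median log2 fold change of 1.67. The CXCR2 ligand Cxcl2 was the most abundant, at 38.4 ± 33.2 CPM in Con and 122 ± 58.7 CPM in EM (SD, n = 5 each), a log2 fold change of 1.67 (SE 0.51). Cxcl1 and Cxcl3, which bind the same receptor, had log2 fold changes of 1.06 (SE 0.47) and 2.24 (SE 0.65). Without Con-mGC-3, Cxcl2 was at 2.32 and Cxcl3 at 3.04. Ppbp, a platelet chemokine, had 0.78 (SE 0.44), with an unadjusted p of 0.0967 by edgeR, and Cxcl5 and Cxcl15 were too low to be tested.

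The ligands bound by IL1R2 are Il1a and Il1b, with log2 fold changes of 1.87 (SE 0.64) and 2.29 (SE 0.49), and Il1rn, the receptor antagonist, had 0.96 (SE 0.42). Il1a was at 2.61 without Con-mGC-3 and at 1.27 without EM-mGC-3. Csf3, the ligand of CSF3R, had between 1 and 11 reads per fresh library and was not tested, at 0.433 ± 0.220 CPM in Con and 0.205 ± 0.146 CPM in EM. Among genes for receptors of S100A8/A9 and of interleukin 1, none of 4 tested was past an unadjusted p of 0.05. Tlr4 was at 0.59 (SE 0.31), Ager at 0.64 (SE 0.36), Il1rap at 0.08 (SE 0.20) and Il1r1 at -0.05 (SE 0.12) on the log2 scale. As for the neutrophil genes, Con-mGC-3 was the highest Con library for the summed ligands, at 169 CPM.

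Markers of other white blood cells were listed beside the neutrophil genes. General leukocyte markers, 10 of 10 tested, summed to 111, 93.8, 210.3, 92.7 and 90.2 CPM in Con and to 158, 114, 289, 203 and 200.5 CPM in EM. Of these, 8 were higher at an unadjusted p under 0.05, led by Cd53 at a log2 fold change of 1.13 (SE 0.39), with Laptm5 the most abundant at 0.30 (SE 0.31) and Ptprc lowest at 0.25 (SE 0.29). Monocyte and macrophage markers, 14 of 14 tested, summed to 229 ± 48.2 CPM in Con and 271 ± 79.4 CPM in EM, with 1 of 14, Ccr2, higher at an unadjusted p under 0.05 and a median log2 fold change of 0.32. Their most abundant gene, Csf1r, was at 0.08 (SE 0.18) and the defining marker Adgre1 at 0.03 (SE 0.24), while Ly6c2, a marker of inflammatory monocytes, was at 1.68 (SE 0.81), or 2.96 without Con-mGC-3, and Ms4a7 lowest at -0.36 (SE 0.26). None of the markers of either list was at 0 over the fresh libraries, and their part in the result was not tested.

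Of the T, B, NK and dendritic cell markers none was higher at an unadjusted p under 0.05. The median log2 fold change was -0.26 for 5 of 10 T cell markers tested, from Cd2 at -0.60 to Lck, the most abundant, at -0.13. It was -0.72 for 7 of 7 B cell markers, from Cd79b at -1.19 (SE 0.40) to Cd79a at -0.38, with Ighm the most abundant at -0.92 (SE 0.20), and Cd79b and Ighm were lower at an unadjusted p under 0.05. It was -0.11 for 5 of 6 NK cell markers, from Nkg7 at -0.41 to Klrb1c at 0.66 with Gzma the most abundant, and -0.58 for 3 of 6 dendritic cell markers, from Siglech at -0.64, or -0.03 without Con-mGC-3, to Zbtb46, the most abundant, at -0.11. Of the dendritic cell markers tested, 1 was lower at an unadjusted p under 0.05. Of 8 eosinophil markers 1 was tested, Ccr3, at -0.83 (SE 0.34), which was also lower at an unadjusted p under 0.05. The 7 mast cell and basophil markers, led by Cma1, were all too low to be tested, summing to 3.61 ± 1.73 CPM in Con and 0.692 ± 0.436 CPM in EM.

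Among the cells of the follicle, 10 granulosa markers had a median log2 fold change of -0.05, from Amh at -0.35 to Cyp19a1 at 0.31, with Inha the most abundant at -0.15 (SE 0.26). The median was 0.12 for 5 luteal markers, from Star at -0.33 to Ptgfr at 0.79 with Cyp11a1 the most abundant, and -0.30 for 8 oocyte markers, from Nlrp5 at -0.43 to Zp3 at -0.22 with Gdf9 the most abundant. The median was -0.01 for 5 surface epithelial markers, from Muc16 at -0.52 to Epcam at 0.15 with Krt19 the most abundant.

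Theca and stromal markers, 7 of 7 tested, summed to 1357 to 1539 CPM in Con and 769 to 1226 CPM in EM, with no overlap. Their median log2 fold change was -0.17, from Col1a1 at -0.96 (SE 0.21) to Insl3 at 0.66 (SE 0.51). The collagen genes Col1a1 and Col3a1, the most abundant of the list, at -0.58 (SE 0.19), were lower at an unadjusted p under 0.05, and none was higher. Endothelial markers, 8 of 8 tested and led by Kdr, summed to 210 ± 14.8 CPM in Con and 160 ± 34.5 CPM in EM. Their median was -0.35, from Tie1 at -0.71 (SE 0.21) to Vwf at -0.19 (SE 0.29), and 3 of 8, Tie1, Tek and Cdh5, were lower at an unadjusted p under 0.05. By edgeR's adjusted p, no theca, stromal or endothelial marker was called, and the part of these cells in the neutrophil values was not tested.

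Blood itself was present in both groups. Red blood cell markers, 6 of 7 tested, from Slc4a1 at 0.08 to Hba-a2 at 0.67 and led by Hba-a1, summed to 4890 ± 892 CPM in Con and 7237 ± 5832 CPM in EM, and their median log2 fold change was 0.61 with 0 past an unadjusted p of 0.05. In EM-mGC-1 to EM-mGC-5, red blood cell markers summed to 6151, 2648, 17418, 4885 and 5084 CPM and the 9 neutrophil genes to 94.4, 53.2, 97.3, 215 and 202 CPM. EM-mGC-2 was the lowest for both, while the highest was EM-mGC-3 for the former and EM-mGC-4 for the latter. Platelet markers, 5 of 8 tested, summed to 26.2 ± 5.99 CPM in Con and 25.9 ± 3.69 CPM in EM, with Pf4 at a log2 fold change of 1.04 (SE 0.30) and Clec1b, the most abundant, at -0.75 (SE 0.28). The part of carried-over blood in the neutrophil values was not tested.

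Summed over the 9 genes, the level was 14.0, 12.7, 68.8, 16.6 and 9.31 CPM in Con-mGC-1 to Con-mGC-5 and 94.4, 53.2, 97.3, 215 and 202 CPM in EM-mGC-1 to EM-mGC-5. The sum is a description of the values by which the genes were chosen. Its mean was 24.3 ± 25.0 CPM in Con, or 13.2 ± 3.04 CPM without Con-mGC-3 (n = 4), and 132 ± 71.8 CPM in EM (SD, n = 5).

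The genes most like the 9 were found over the 10 fresh libraries, as the Pearson correlation of log2 CPM with the mean of the standardized log2 CPM of the 7 fitted genes, among 14109 genes with a mean of at least 1 CPM. The most alike included Chil1 (r = 0.986), Il1b (0.985), Slfn1 (0.979), Chil3 (0.979), Mefv (0.979), Mmp9 (0.971) and Acod1 (0.971). Mefv encodes pyrin, an inflammasome protein of granulocytes. Without Con-mGC-5 and Con-mGC-1, the libraries farthest from the median of the profile, r lay between 0.959 and 0.979. Chil1 and Mefv were not in the fixed lists, and the others named were. The 10 libraries fall largely into the groups that were compared, and each r is taken over points that share this difference.

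In culture, the 9 genes were almost absent apart from Camp. S100a8, S100a9, Retnlg and Ly6g had 0 reads in all 6 cultured libraries, which allows at most 0.102 to 0.140 CPM of the raw total per library (3 reads). Il1r2 had 0, 2 and 4 reads with PBS and 1, 1 and 2 with EET. Csf3r had 2 reads in EET-2, Wfdc17 had 2 in PBS-3 and Cxcr2 had 1 in PBS-2, and the other cultured libraries had none of these. The 8 genes other than Camp thus had 15 reads together out of 154524562. The cultured mGCs also came from EM mice, whose fresh libraries held 53.2 to 215 CPM over the 9 genes, but culture, mice and sequencing run cannot be told apart between the 2 tables, and no test was made.

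Camp was the exception, and the only one of the 9 that passed edgeR's expression filter in culture. It had 11, 29 and 31 reads with PBS and 44, 34 and 37 with EET, or 0.522, 1.12 and 1.12 CPM against 1.50, 1.29 and 1.55 CPM. Every EET library was above every PBS library, as was so for 8.48% of the 15050 genes tested in this comparison. The mean was 0.918 ± 0.343 CPM with PBS and 1.45 ± 0.134 CPM with EET (SD, n = 3 each), a log2 fold change of 0.62 (SE 0.29). By edgeR's quasi-likelihood test the unadjusted p was 0.0523 and the Benjamini-Hochberg adjusted p over all tested genes 0.406, so Camp was not called, where 1.22% of the tested genes were. Across the edgeR alternatives its adjusted p lay between 0.216 and 0.744, and the log2 fold change was 0.37 without PBS-1, the lowest library. The 6 cultured libraries held only 4 Ptprc reads together, and which cells carried the Camp reads was not tested.

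Of the 89 genes of the other neutrophil lists, 19 had no read in any cultured library and 26 were tested. The granule genes summed to 11.9 ± 1.83 CPM with PBS and 19.2 ± 4.41 CPM with EET (SD, n = 3 each). The receptor genes summed to 125 and 132 CPM, of which Il17ra held 112 and 119 CPM, and the transcription factors to 411 and 440 CPM, led by Cebpb. Cebpa alone was called, at 137 ± 9.76 CPM with PBS and 171 ± 8.63 CPM with EET (SD, n = 3 each), a log2 fold change of 0.32 (SE 0.06) and an adjusted p of 0.0236 by edgeR with Benjamini-Hochberg adjustment, higher in 3 of 3 EET libraries. Cebpa encodes a transcription factor of granulocytes that granulosa cells also use, and its adjusted p rose to 0.134 without EET-2, over a range of 5.25e-06 to 0.134 in the alternatives. At an unadjusted p under 0.05, 6 of the 26 were higher and 1 was lower, where 6.03% and 6.38% of all tested genes were. The 4 granule genes among the higher ones were Lyz2 at a log2 fold change of 1.08 (SE 0.29), Slc11a1, a metal transporter of phagosomes, at 0.90 (SE 0.23), Hp at 0.76 (SE 0.20) and Cd177, a neutrophil surface glycoprotein, at 0.65 (SE 0.21). Their adjusted p values were 0.108, 0.0857, 0.106 and 0.189 by edgeR, and none was called. With the replicate number as a block Lyz2 was called, at an adjusted p of 0.0191 by edgeR. Of the ligands, Cxcl1, Cxcl3 and Cxcl5 were tested and none passed, with log2 fold changes of -0.19, 0.27 and -0.17. The only other listed genes called were Inha, which encodes an inhibin subunit of granulosa cells, at a log2 fold change of -0.36 (adjusted p of 0.0430 by edgeR), and Ptgfr, the prostaglandin F receptor of luteal cells, at 0.94 (adjusted p of 0.0156 by edgeR).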

How the data were processed

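The authors deposited unnormalized counts of reads on each Ensembl gene, in a table of the 10 fresh and a table of the 6 cultured libraries. The submitters' processing notes name fastp, HISAT2, StringTie and GRCm39, and the tables carry a featureCounts layout. The library kit kept strand, but the strand setting of the counting and its treatment of multi-mapping reads are not given in the sources used here. Reads were 150 bp, from both ends. Libraries were assigned to groups by the labels, and 0 columns were left unused.

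Genes were kept by edgeR's filterByExpr (edgeR 4.0.16, R 4.3.3), normalized by TMM and compared by the quasi-likelihood test with Benjamini-Hochberg adjustment over all tested genes, each table in a fit of its own, and called at an adjusted p of 0.05. Values are TMM-normalized CPM, as mean ± SD. Exon lengths are unions of GENCODE M21 exons (GRCm38), used for levels per kilobase only, since only 1512 of 52081 shared genes start at the same base in both builds. Promoter windows are from RefSeq, GRCm38.p6.

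The 9 genes and all gene lists were chosen with earlier results of these data known. Of 236 listed symbols, 233 were found in the tables, and Ahsp, BC100530 and Lilr4b were not matched. The named genes are the 9, the most abundant and the highest and lowest of each list, up to 5 of each neutrophil list with the smallest p, all ligands, listed genes called between EET and PBS, and the 8 most alike genes, of which some are not reported here. Mpo, Elane, Ctsg, Cxcr1, Cebpe, Adgre1, the interleukin 1 receptors and the granule genes named for culture were named after their values were seen. Alternatives were RLE normalization, DESeq2 1.42.0, other filters, no mitochondrial transcripts, the replicate number as a block, and each library left out. On simulated counts with 200 genes changed by a log2 of 2, edgeR recovered 174 in the fresh design, with 5 false calls among 179, and 196 in the cultured one, with 10 among 206. For DESeq2, 31 of 207 calls were false in the fresh design, where 176 changed genes were found, and 10 of 200 in the cultured one, where 190 were found. The simulated counts varied independently between genes and held no outlying library such as Con-mGC-3. They therefore do not give the recovery or the share of false calls in the real comparisons.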

Additional observations from a re-analysis of the deposited data

Results flagged for a closer look

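Each group was searched for a single library far from the rest, by its gap to the nearest library over the range of the group. Of 26 such groups of 5 libraries, 9 held one, where chance alone flags about 1 in 20 groups, and the genes are not independent of each other. Con-mGC-3 was the highest Con library in 7 of these. It had 7.25 CPM of S100a8 where the other 4 Con libraries had at most 0.663, 19.9 CPM of S100a9 where they had at most 4.14, and 18.4 CPM of Csf3r where they had at most 5.83. It had 8.19 CPM of Retnlg where they had at most 0.723, and 5.88 CPM of Il1r2 where they had at most 1.72. Summed over the 9 genes it had 68.8 CPM where they had at most 16.6, and Ptprc was at 35.6 CPM where they had at most 14.7. EM-mGC-4 had 8.32 CPM of Camp, where the other EM libraries had at most 0.996. EM-mGC-3 had 21.8% of its reads on mitochondrial transcripts, where the other EM libraries had at most 11.1%. The groups of 3 cultured libraries were too small for this rule.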

How the results depend on the processing

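Between EM and Con, edgeR called 0 genes at an adjusted p of 0.05, DESeq2 called 110, edgeR without a filter on low counts 4, with the replicate number as a block 2, and with each library left out 0 to 46, the 46 being without Con-mGC-3. All 7 fitted genes of the 9 had positive log2 fold changes under each alternative that fitted them, of which the minimum of 10 counts in every library fitted 4. Of the other neutrophil genes, between 44 and 58 were higher at an unadjusted p under 0.05 with each library left out. Between EET and PBS, edgeR called 184 genes, DESeq2 322, no filter gave 662, the replicate block 341, and leaving out each library 48 (without EET-3) to 436 (without PBS-2). Of the other neutrophil genes 1 was called there, and 4 without a filter (Cebpa, Hp, Lyz2 and Slc11a1), 2 with the replicate block (Cebpa and Lyz2) and 0 to 1 with each library left out, 0 without EET-1 or EET-3 and Lyz2 in place of Cebpa without EET-2. Camp was called under no edgeR alternative, and DESeq2 gave it no adjusted p. The cause of these differences was not tested. As a check on pairing, each library's deviation from its group was correlated with that of the library of equal number, which gave r of -0.282, -0.196, 0.0996, -0.0735 and 0.203 for EM and Con and of 0.0856, 0.159 and -0.0434 for EET and PBS. These values do not show that the numbers mark pairs, although by the study's methods the cultured replicates came in pairs. Of 176 list means under other scalings, 170 moved by less than 1 SD.

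Ly6g, Camp, Cxcr2, S100a8 and Retnlg rest on few reads in Con, for the last 3 outside Con-mGC-3, which limits their fold changes. Libraries were not made from sorted cells, and 5 or 3 libraries per group set the precision. The same values chose the 9 genes and describe them between EM and Con.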
